A study of Mus musculus with 23 samples.

Results

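The 9 genes described here encode the first steps of the classical complement pathway and its main inhibitor: C1qa, C1qb, C1qc, C1ra, C1s1, C2, C4b, C3 and Serping1. They form a list named by pathway, chosen with earlier results of these data known. All 9 were among the 19882 genes that passed the filter on low counts, of 47311 genes measured. Their RNA was measured in mammary fat pad next to an orthotopic breast tumor in 23 female C57BL/6J mice. The 4 groups were obese mice given anti-PD-1 (n = 8), obese mice given the isotype control antibody IgG2a (n = 5), lean mice given anti-PD-1 (n = 5) and lean mice given IgG2a (n = 5). Anti-PD-1 blocks an inhibitory receptor of T cells, and IgG2a has no such target. Obese mice had eaten a diet with 60% of its energy from fat and lean mice one with 10%, with feeding between 8 and 26 weeks of age. All mice carried E0771-luciferase cells, a mouse mammary carcinoma line of the same strain, injected as 250000 cells in matrigel into the fourth mammary gland. The antibodies were injected at 200 µg every 3 days until day 21. The treatment text of every sample, lean ones included, describes only the high-fat diet, so the lean diet rests on the sample label alone. Each library was taken as 1 mouse, and the labels do not say whether any tissue was pooled. The design asks how diet-induced obesity and PD-1 blockade are related to gene expression in fat beside the tumor.

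Classical complement starts when C1q, built from chains A, B and C, binds antibody on a surface or other targets such as dying cells. C1q carries the proteases C1r and C1s, and C1s then cleaves C4 and C2, whose fragments form the enzyme that splits C3 and so coats the target with C3b. The C1 inhibitor, encoded by Serping1, inactivates C1r and C1s. In many tissues macrophages are the main source of C1q, while stromal cells make C1r, C1s and C1 inhibitor, and in fat C3 is also a product of adipocytes and stromal cells.

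The genes lie in a few places of the GRCm38 genome, with coordinates from GENCODE M21. C1qa (chr4:136895917-136898803), C1qc (chr4:136889804-136893065) and C1qb (chr4:136880129-136886187) are neighbours on the minus strand of chromosome 4. C1ra (chr6:124512405-124523443, plus strand) and C1s1 (chr6:124530345-124542359, minus strand) are neighbours on chromosome 6. C4b (chr17:34728380-34743882), C2 (chr17:34862604-34898265) and C3 (chr17:57203970-57228136) are on the minus strand of chromosome 17, and Serping1 (chr2:84765387-84775444) is on the minus strand of chromosome 2. The 250 bases before the start of 3 of them are shown because these 3 genes stand for 3 different patterns in the data: C1qb with no call in any comparison by the main test, C1s1 higher in obese mice and C3 lower in obese mice. The windows are RefSeq sequence of GRCm38.p6 on the gene's own strand, 5′ to 3′, and capitals mark the letters of a motif found on either strand.
C1qb, chr4:136886201-136886450, minus strand: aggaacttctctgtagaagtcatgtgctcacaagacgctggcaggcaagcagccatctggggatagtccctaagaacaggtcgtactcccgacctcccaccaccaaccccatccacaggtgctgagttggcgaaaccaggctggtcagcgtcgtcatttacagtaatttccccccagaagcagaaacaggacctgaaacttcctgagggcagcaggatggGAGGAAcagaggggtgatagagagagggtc
C1s1, chr6:124542360-124542609, minus strand: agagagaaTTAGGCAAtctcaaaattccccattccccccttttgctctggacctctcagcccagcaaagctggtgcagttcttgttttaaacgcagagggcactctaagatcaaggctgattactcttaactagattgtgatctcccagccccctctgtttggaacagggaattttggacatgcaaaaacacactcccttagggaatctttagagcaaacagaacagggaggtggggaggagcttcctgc
C3, chr17:57228137-57228386, minus strand: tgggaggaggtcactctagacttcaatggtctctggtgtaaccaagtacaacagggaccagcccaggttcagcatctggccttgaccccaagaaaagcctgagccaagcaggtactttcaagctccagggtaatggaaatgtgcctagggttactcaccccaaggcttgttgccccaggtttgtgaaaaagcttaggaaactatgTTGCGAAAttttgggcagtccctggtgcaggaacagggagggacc
The motifs searched were the PU box GAGGAA bound by the myeloid factor PU.1, and the C/EBP site TTGCNNAA; the search allowed overlaps, and no 2 matches in these windows overlapped. The C1qb window held 1 PU box, at position -30 from the start, and 23.3% of the 32851 windows of this length held one. The C1s1 and C3 windows each held 1 C/EBP match, at -242 and -45, against 9.56% of all windows. A match describes letters only.

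Libraries held 49438121 to 77369057 estimated counts, and each of the 9 genes had between 1332 and 96244 counts in each library, so counting error is small beside the spread between mice. Adipocyte markers were present in all 23 libraries, with 8 of 8 above 0 and summed levels of 5270 to 52873 CPM. B cell markers split the libraries: their mean log2 CPM was above 4 in 2 of 8 obese anti-PD-1, 2 of 5 obese IgG2a, 3 of 5 lean anti-PD-1 and 4 of 5 lean IgG2a libraries, and the lymph node stroma list reached 3866 CPM. Obese IgG2a 5 held 10039 CPM of 12 hepatocyte markers, against at most 231.8 CPM in any other library. Results are given with and without these libraries where that changes a call. In whole tissue, fewer cells of a type and less RNA per cell cannot be told apart.

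Per unit of transcript length, C3 was the most abundant of the 9 genes, with a median of 358 TPM over the 23 libraries. C4b followed with a median of 165 TPM, C1qa with 118 TPM, Serping1 with 100.1 TPM and C1qb with 97.4 TPM. C1qc had a median of 70.9 TPM, C1s1 of 67.7 TPM, C1ra of 28.7 TPM and C2 of 24.7 TPM. The ranges over the 23 libraries overlapped between all neighbours in this order. Serping1 spanned the widest range, 12.1-fold between its lowest and highest library in TPM, followed by C3 at 10.2-fold, and C1qb the narrowest at 3.89-fold. The TPM of C3 depends on how reads were assigned: its full-length transcript held a median of 92.9% of the counts of the gene and 46.5% of its TPM.

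**Figure D1:**
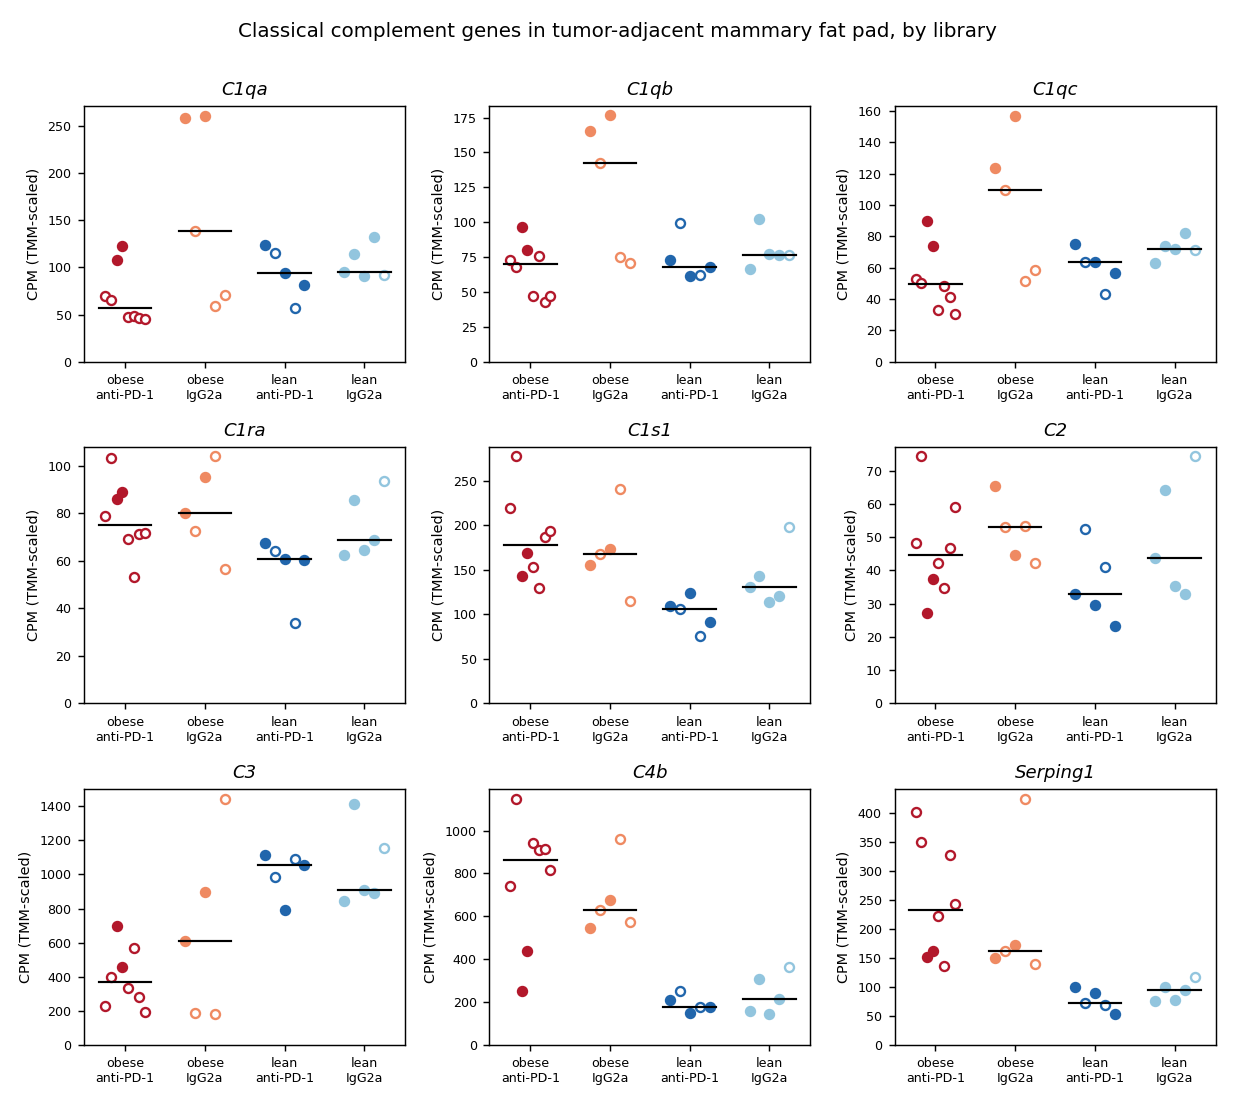
CPM (counts scaled to a common library size by TMM) of each of the 9 genes in each of the 23 libraries, with groups on the horizontal axis, the group median as a line and filled points for libraries with a B cell score above 4. C4b and Serping1 sit higher in both obese groups than in the lean group given the same antibody, and C3 in obese anti-PD-1 libraries, at 191 to 697 CPM, sits below all lean libraries.

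Obesity went with higher RNA of C4b and Serping1 under both antibodies, while C1s1 was higher and C3 lower in obese mice under anti-PD-1. C1s1 and C3 were not called under IgG2a but were called over both antibodies together. A dependence of the obesity difference on the antibody passed the test for none of the 9. Under anti-PD-1, 3 of the 9 genes rose in obese against lean fat pad and 1 fell, where 5.2% of all tested genes rose and 4.85% fell (edgeR's quasi-likelihood test, Benjamini-Hochberg adjusted p under 0.05). Under IgG2a, 2 of 9 rose and none fell, where 2.68% of tested genes rose and 3.12% fell. Of the 9, 3 had an unadjusted p under 0.05 by edgeR, as did 3929 of the 19882 tested genes. DESeq2 called 2 of the 9 higher and none lower, and its share of all genes is not given here. Over both antibodies together, 3 of 9 rose and 1 fell, where 10.6% of tested genes rose and 8.15% fell. The median log2 fold change of the 9 genes was 0.37 under anti-PD-1, 0.47 under IgG2a and 0.26 over both, against medians over all tested genes of 0.08, 0.12 and 0.12. The C1q chains, C1ra and C2 passed the test in none of these comparisons.

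**Figure D2:**
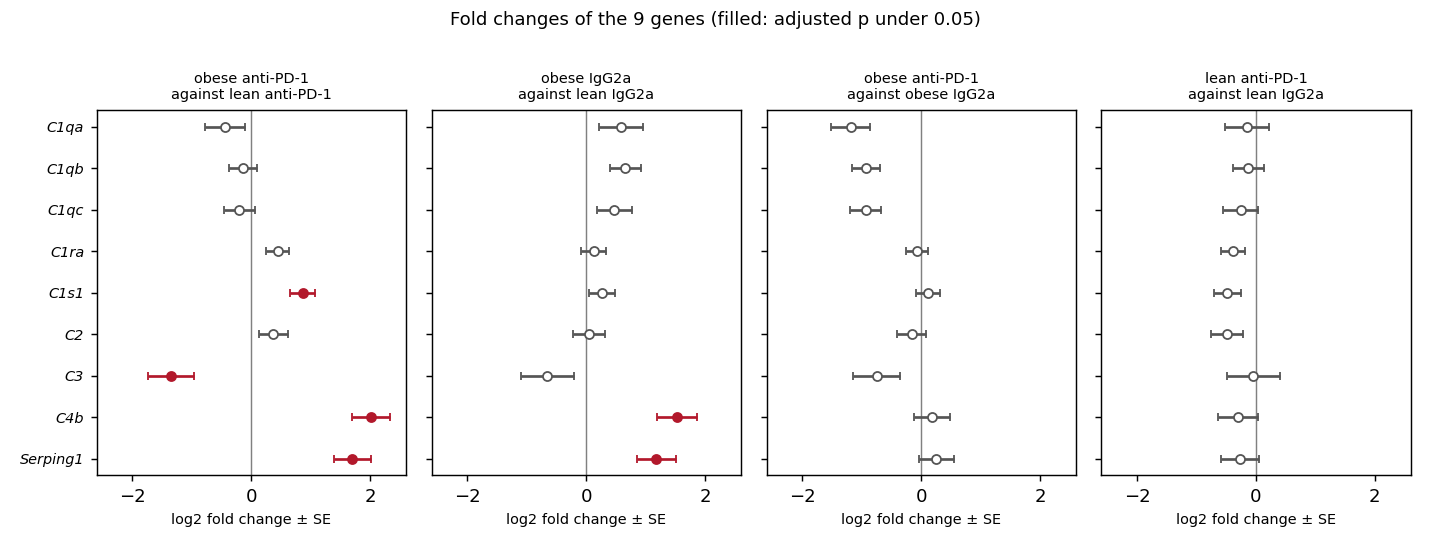
Log2 fold change with its standard error for each of the 9 genes in 4 comparisons, filled where the adjusted p was under 0.05. C4b and Serping1 are filled and right of 0 in both obese against lean panels, and the C1q chains lie left of 0, unfilled, in obese anti-PD-1 against obese IgG2a.

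C4b encodes mouse complement component C4, whose larger fragment anchors the C3-splitting enzyme to its target. In obese anti-PD-1 libraries it ranged between 252 and 1145 CPM with a median of 863 CPM, against 208, 249, 150, 175 and 175 CPM in lean anti-PD-1 libraries 1 to 5. In obese IgG2a libraries 1 to 5 it was at 547, 631, 676, 960 and 572 CPM, against 156, 307, 143, 211 and 362 CPM in lean IgG2a libraries. No obese library overlapped the lean libraries of the same antibody, a separation that 1.71% of tested genes showed in this direction under anti-PD-1 and 1.83% under IgG2a. The lowest obese libraries were anti-PD-1 3 and 4, at 252 and 438 CPM, which are also the 2 with B cell scores above 4 in that group. C4b was 4.03-fold higher in obese than lean mice under anti-PD-1 (log2 2.01 ± 0.32 SE, edgeR adjusted p = 0.000382) and 2.87-fold higher under IgG2a (1.52 ± 0.34, edgeR adjusted p = 0.00948). These calls held with each library left out in turn. Over both antibodies the difference was 1.77 ± 0.23 on the log2 scale (edgeR adjusted p = 1.61e-05).

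C4b has a near copy, C4a, from which reads could be split. C4a was at most 2.69 CPM in any library, far under the C4b values, and adding the 2 genes left the number of calls as it was. C4a passed the test in none of the comparisons, with a log2 difference of -0.27 ± 0.67 SE in obese against lean mice over both antibodies.

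Serping1 encodes the C1 inhibitor, a plasma serpin that also restrains the contact system. Obese anti-PD-1 libraries held 137 to 402 CPM with a median of 233 CPM, against 101, 72.7, 89.2, 68.6 and 53.7 CPM in lean anti-PD-1 libraries. Obese IgG2a libraries held 149, 163, 172, 424 and 140 CPM, against 75.0, 100.1, 77.1, 94.0 and 117 CPM in lean IgG2a libraries. Every one of the 13 obese libraries was above every one of the 10 lean libraries, the lowest obese value being 137 CPM and the highest lean value 117 CPM; 0.226% of tested genes were separated in this way. Serping1 was 3.24-fold higher in obese mice under anti-PD-1 (log2 1.70 ± 0.31 SE, edgeR adjusted p = 0.00131) and 2.26-fold higher under IgG2a (1.18 ± 0.33, edgeR adjusted p = 0.0356). The IgG2a difference rested partly on obese IgG2a 4, without which it was 0.79 (edgeR adjusted p = 0.0951), and its call was also lost without lean IgG2a 1, 2, 3 or 5. Over both antibodies the difference was 1.44 ± 0.23 (edgeR adjusted p = 0.000114), and that call held without any 1 library.

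C1s1 and C1ra encode the 2 proteases that C1q carries. C1s1 ranged between 129 and 278 CPM in obese anti-PD-1 libraries, with a median of 177 CPM, against 109, 106, 124, 75.7 and 91.8 CPM in lean anti-PD-1 libraries. The groups did not overlap, a separation that 1.71% of tested genes showed in this direction. C1s1 was 1.82-fold higher in obese mice under anti-PD-1 (log2 0.86 ± 0.21 SE, edgeR adjusted p = 0.0108), a call that held without any 1 library. Under IgG2a its values were 155, 168, 173, 241 and 115 CPM in obese libraries and 131, 143, 113, 121 and 198 CPM in lean libraries, and the ranges overlapped. That difference of 0.27 ± 0.22 did not pass the test (edgeR adjusted p = 0.595). Over both antibodies C1s1 was 1.48-fold higher in obese mice (0.57 ± 0.15, edgeR adjusted p = 0.0118).

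C1ra, its neighbour on the opposite strand, had mean levels of 77.9 ± 15.1 CPM in obese anti-PD-1 and 57.3 ± 13.4 CPM in lean anti-PD-1 libraries (SD, n = 8 and 5). Under IgG2a its means were 81.9 ± 18.9 CPM in obese and 75.1 ± 13.8 CPM in lean libraries (SD, n = 5 each). Its log2 differences were 0.44 ± 0.19 SE under anti-PD-1 (edgeR adjusted p = 0.141) and 0.13 ± 0.21 under IgG2a (edgeR adjusted p = 0.846). An interval of 2 SE on either side of the first ran from 0.07 to 0.82. The TPM ratio of C1s1 to C1ra had a median of 3.09 in obese anti-PD-1, 2.50 in obese IgG2a, 1.79 in lean anti-PD-1 and 2.18 in lean IgG2a libraries, and it was above 1 in all 23 libraries.

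The near copies C1rb and C1s2 had at most 3.61 and 2.20 CPM in any library and passed the test in none of the comparisons; over both antibodies their log2 differences were 2.07 and 0.69, the second with an SE of 1.34. C1s1 overlaps the antisense gene Gm16567, whose level was 3.97 to 17.5 CPM; without strand, reads of the 2 cannot be told apart. Gm16567 did not pass the test under anti-PD-1 (log2 0.22 ± 0.28, edgeR adjusted p = 0.725). The longest protein-coding transcript of C1s1 alone held a median of 11.6% of the counts of the gene, and on it the anti-PD-1 difference was 0.39 (edgeR adjusted p = 0.672).

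C2 supplies the protease part of the C3-splitting enzyme, beside the C4 fragment. Its levels averaged 46.3 ± 14.9 CPM in obese anti-PD-1 and 35.9 ± 11.3 CPM in lean anti-PD-1 libraries (SD, n = 8 and 5). Under IgG2a they averaged 51.7 ± 9.1 CPM in obese and 50.1 ± 18.4 CPM in lean libraries (SD, n = 5 each). The ranges overlapped in both pairs. The log2 differences were 0.37 ± 0.25 SE (edgeR adjusted p = 0.397) and 0.05 ± 0.27 (edgeR adjusted p = 0.967). Under IgG2a the C2 difference was less than its SE, while C4b, the other part of the enzyme, was 2.87-fold higher in obese mice. C2 overlaps the gene Zbtb12 and the readthrough gene Gm20547. Zbtb12 was lower in obese mice under anti-PD-1 (log2 -0.73 ± 0.23 SE, edgeR adjusted p = 0.0433), and Gm20547 did not pass the test (edgeR adjusted p = 0.694). The main C2 transcript, C2-201, held anywhere between 0.248% and 98.4% of the counts of the gene, so single C2 transcripts are not described.

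C3 is the protein on which all complement routes converge. Obese anti-PD-1 libraries held 191 to 697 CPM with a median of 367 CPM, against 1115, 984, 793, 1093 and 1054 CPM in lean anti-PD-1 libraries. The groups did not overlap, which 3.11% of tested genes did in this direction. C3 was lower in obese mice under anti-PD-1, at 0.391 times the lean level (log2 -1.35 ± 0.39 SE, edgeR adjusted p = 0.0315). This call was close to the threshold: it was lost without any one of 9 libraries, obese anti-PD-1 1, 2, 5, 7 or 8 and lean anti-PD-1 1, 2, 4 or 5, with adjusted p up to 0.0803. Over all 23 fits without 1 library, the log2 difference lay between -1.52 and -1.24. On log2(TPM + 1) with limma it was -1.25 (adjusted p = 0.0527). The edgeR call was also lost in both sets when libraries were split at a B cell score of 4.

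Under IgG2a, C3 was at 610, 186, 899, 179 and 1440 CPM in obese libraries 1 to 5, against 843, 1415, 908, 889 and 1154 CPM in lean libraries. The obese values were widely spread and overlapped the lean ones, and the difference of -0.65 ± 0.45 did not pass the test (edgeR adjusted p = 0.484). The highest of all 23 values was that of obese IgG2a 5, the library with hepatocyte RNA. The part of hepatocyte RNA in this value was not tested. Without that library the difference was -1.11 ± 0.45 (edgeR adjusted p = 0.237). Over both antibodies C3 was lower in obese mice, at 0.499 times the lean level (edgeR adjusted p = 0.0220), and the call was lost without lean IgG2a 2 (adjusted p = 0.0519).

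C4b and C3 were also compared within single libraries. The TPM ratio of C4b to C3 was 0.223 to 4.27 in obese anti-PD-1 libraries and 0.215 to 2.95 in obese IgG2a libraries, against 0.101 to 0.169 in lean anti-PD-1 and 0.0928 to 0.316 in lean IgG2a libraries. It was above 1 in 6 of 8 obese anti-PD-1 and 3 of 5 obese IgG2a libraries and in none of the 10 lean libraries. The TPM of C4b also depends on how reads were assigned: its longest coding transcript held 21.7% to 97.1% of it. In CPM, C4b was below C3 in obese anti-PD-1 4 (438 and 454) and obese IgG2a 1 (547 and 610). It was above C3 in obese anti-PD-1 6 (909 and 571), where the TPM ratio was 0.942. The C4b to C3 ratio was formed after the values were seen and was not tested.

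C1qa, C1qb and C1qc encode the 3 chains of C1q. In obese anti-PD-1 libraries C1qa ranged between 44.9 and 123 CPM with a median of 57.1 CPM, against 123, 115, 93.7, 56.9 and 81.9 CPM in lean anti-PD-1 libraries. In obese IgG2a libraries 1 to 5 it was at 258, 139, 260, 59.6 and 70.4 CPM, against 95.0, 115, 91.2, 132 and 92.2 CPM in lean IgG2a libraries. The ranges overlapped in both pairs, and 3 of the 5 obese IgG2a libraries were above every other library of the series. For C1qb the means were 66.2 ± 19.0, 126 ± 50.1, 72.8 ± 15.5 and 79.8 ± 13.3 CPM in obese anti-PD-1, obese IgG2a, lean anti-PD-1 and lean IgG2a libraries (SD, n = 8, 5, 5 and 5). For C1qc, in the same order of groups, they were 52.5 ± 20.2, 100.1 ± 44.7, 60.6 ± 11.7 and 72.3 ± 6.8 CPM.

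The C1q chains did not pass the test in obese against lean mice under either antibody. Under anti-PD-1 the log2 differences were -0.44 ± 0.33 SE for C1qa, -0.14 ± 0.23 for C1qb and -0.21 ± 0.26 for C1qc (edgeR adjusted p = 0.461, 0.811 and 0.722). Under IgG2a they were 0.58 ± 0.37, 0.66 ± 0.26 and 0.47 ± 0.29 (edgeR adjusted p = 0.440, 0.148 and 0.425). The intervals of 2 SE on either side were wide: for C1qb they ran from -0.60 to 0.33 under anti-PD-1 and from 0.14 to 1.18 under IgG2a.

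**Figure D3:**
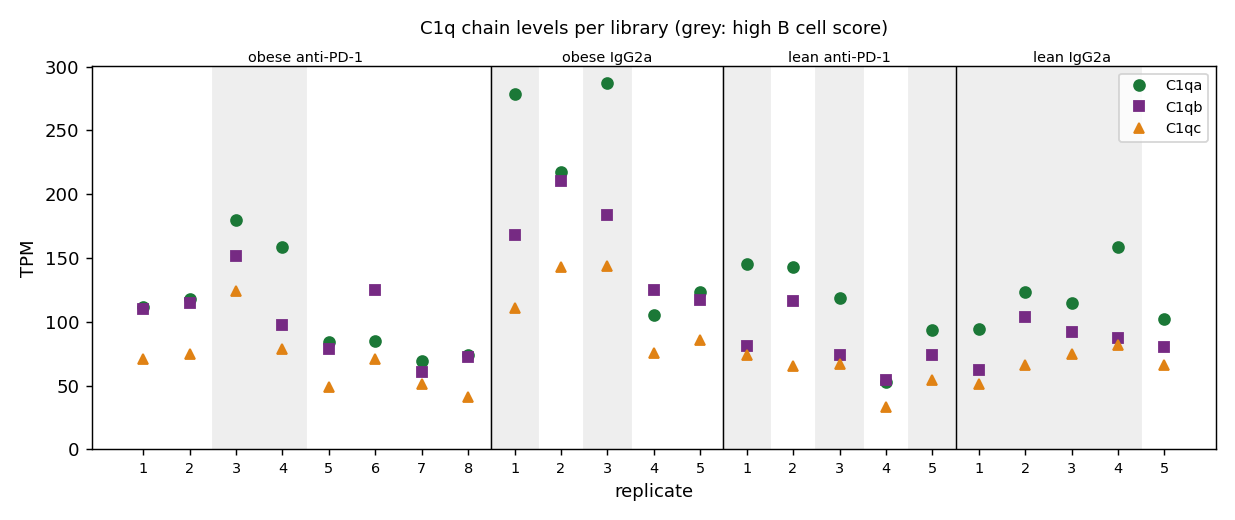
TPM of the 3 C1q chains in each library, by group and replicate, with grey bands for libraries with a B cell score above 4. C1qc lies below C1qb in all 23, and the highest C1qa values, 217 to 288 TPM, are those of obese IgG2a 1, 2 and 3.

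The proportions of the 3 chains varied less between libraries than their levels. The TPM ratio of C1qc to C1qb was 0.564 to 0.937 over the 23 libraries and below 1 in all of them. The ratio of C1qa to C1qb was 0.678 to 1.82, and above 1 in 20 of 23. Mean ratios of C1qa to C1qb were 1.10 ± 0.26 in obese anti-PD-1 and 1.23 ± 0.36 in obese IgG2a libraries, and 1.38 ± 0.32 in lean anti-PD-1 and 1.41 ± 0.26 in lean IgG2a libraries (SD, n = 8, 5, 5 and 5), with overlapping ranges. Over the same libraries C1qa itself spanned 5.45-fold and C1qc 4.32-fold.

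Anti-PD-1 against IgG2a in obese mice gave the lowest p-values for the 3 C1q chains among the 9 genes. Their levels under anti-PD-1 were 0.439, 0.525 and 0.525 times those under IgG2a for C1qa, C1qb and C1qc (log2 -1.19 ± 0.33, -0.93 ± 0.23 and -0.93 ± 0.26 SE). None passed edgeR's quasi-likelihood test after adjustment (adjusted p = 0.0971, 0.0628 and 0.0976), so 0 of 9 genes were called, where 0.538% of tested genes were. That share is 107 genes, a count that lay between 0 and 643 with 1 library left out and moved by over 1.5 times in 18 of 23 such fits. All 3 had unadjusted p-values under 0.05 by edgeR, as did 2700 of the 19882 tested genes. DESeq2 called all 3 (adjusted p = 0.0390, 0.0218 and 0.0491). With the B cell score in the edgeR fit all 3 were called as well, at -0.91, -0.83 and -0.77 (adjusted p = 0.0407, 0.0358 and 0.0331). The share of all genes that either of these fits called is not given here. Leaving out obese IgG2a 4 gave 3 calls among the 9, and that was the fit with 643 of all tested genes called. Leaving out obese anti-PD-1 3 gave 2, C1qb and C1qc, and the count of all genes in that fit is not given here.

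The obese IgG2a C1q values fell into a high and a low set of libraries. The summed CPM of the 3 chains was 547, 391 and 594 in obese IgG2a 1, 2 and 3 and 186 and 200.2 in obese IgG2a 4 and 5, against 122 to 294 CPM in the 8 obese anti-PD-1 libraries. In obese anti-PD-1 the 2 highest sums, 294 and 277 CPM, were those of libraries 3 and 4, whose B cell scores were above 4. In obese IgG2a the 2 highest were those of libraries 1 and 3, the only ones of that group with scores above 4. Obese IgG2a 2, at 391 CPM, had a score below 4. The 12 macrophage markers were above 0 in every library, with sums of 1846 to 3330 CPM in obese anti-PD-1 and 2089 to 3352 CPM in obese IgG2a libraries. Of these 12, 1 was lower under anti-PD-1, Ms4a7 (log2 -1.49 ± 0.34 SE, edgeR adjusted p = 0.0498), and none was higher; their median log2 difference was -0.38, against 0.00 over all tested genes. The part of macrophage number or of lymph node in the C1q values was not tested beyond these measures.

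The other 6 genes did not pass the test between antibodies in obese mice. C3 had the next largest difference, -0.75 ± 0.40 SE (edgeR adjusted p = 0.410), and it was -0.27 without obese IgG2a 5. C4b, Serping1 and C1s1 differed by 0.19 ± 0.30, 0.25 ± 0.29 and 0.11 ± 0.20, and C1ra and C2 by -0.07 ± 0.19 and -0.16 ± 0.24.

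In lean mice, 0 of 9 genes and 0% of all tested genes passed edgeR's quasi-likelihood test between anti-PD-1 and IgG2a. DESeq2 also called none of the 9. Without adjustment, 472 of 19882 genes were past 0.05 by edgeR, and C1s1, at -0.48 ± 0.22 SE, was the 1 such gene of the 9. All 9 estimates were below 0, with a median of -0.27, against -0.04 over all tested genes. C2 and C1ra differed by -0.48 ± 0.27 and -0.39 ± 0.21, and C3 by -0.05 ± 0.45. The library lean anti-PD-1 4 had the lowest CPM of all 23 libraries for C1ra, at 33.8, and for C1s1, at 75.7.

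The difference between the antibody effects in obese and in lean mice, the interaction, passed the test for 0 of 9 genes and 0% of tested genes by edgeR, and for none of the 9 by DESeq2. Without adjustment, 1449 genes were past 0.05 by edgeR, and C1qb, at -0.80 ± 0.35 SE, was the 1 such gene of the 9. C1qa was at -1.03 ± 0.50 and C1qc at -0.67 ± 0.39. The same contrast tests whether the obese against lean difference depends on the antibody: for C4b it was 0.49 ± 0.45, for Serping1 0.52 ± 0.44, for C1s1 0.59 ± 0.30 and for C3 -0.70 ± 0.60. An interval of 2 SE on either side ran from -0.40 to 1.38 for C4b and from -0.35 to 1.39 for Serping1, so these groups neither show nor bound tightly a dependence on the antibody.

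**Figure D4:**
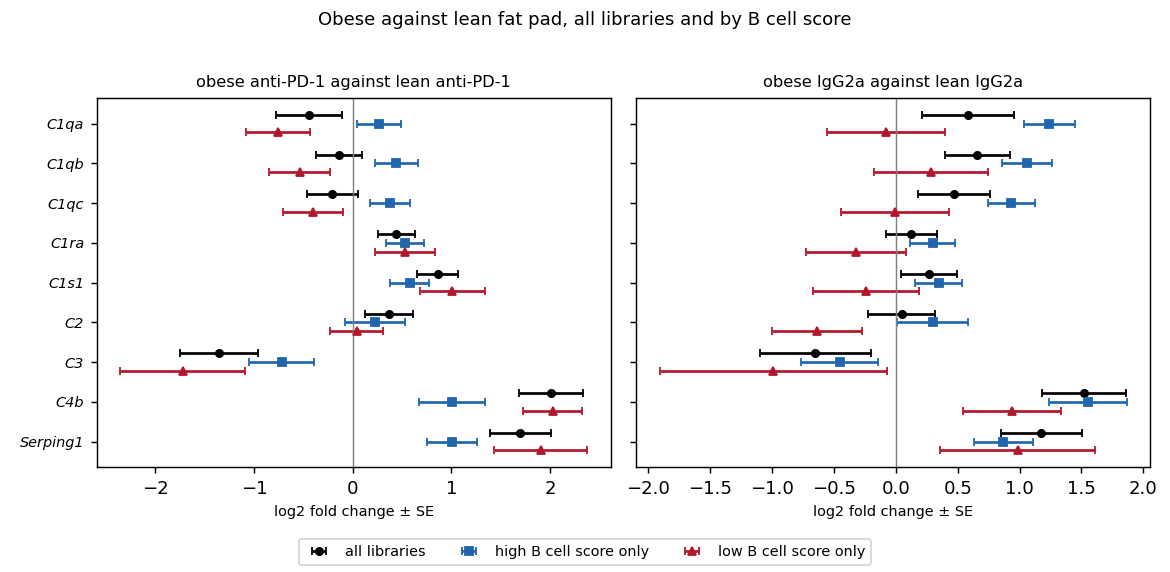
Log2 fold change with its standard error of each of the 9 genes in obese against lean fat pad under each antibody, for all libraries, for the 11 with a B cell score above 4 and for the 12 below. C4b and Serping1 lie right of 0 and C3 left of 0 in every set, and the C1q chains lie further right in libraries above 4 than in those below.

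Libraries with and without a high B cell score were compared apart, because the score was unevenly spread over the groups. In the 11 libraries above 4, obese against lean mice over both antibodies gave 7 calls, all higher, where 8.27% of the genes tested in that fit were called higher. C1qa was then 0.75 ± 0.15 SE higher, C1qb 0.75 ± 0.15, C1qc 0.66 ± 0.14, C4b 1.28 ± 0.23, Serping1 0.94 ± 0.17, C1s1 0.46 ± 0.14 and C1ra 0.41 ± 0.13 (edgeR adjusted p = 0.00692, 0.00583, 0.00866, 0.00368, 0.00427, 0.0354 and 0.0474). In the 12 libraries below 4, C4b at 1.48 ± 0.26 and Serping1 at 1.44 ± 0.40 were the 2 called (edgeR adjusted p = 0.00270 and 0.0326), where 6.92% of genes were called higher. The C1q chains were there at -0.42 ± 0.28, -0.13 ± 0.27 and -0.21 ± 0.26. C3 was not called in either set, at -0.59 ± 0.23 and -1.36 ± 0.55 (edgeR adjusted p = 0.0898 and 0.129).

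Under IgG2a, the libraries above 4 were obese 1 and 3 against lean 1 to 4, and 5 of 9 genes were called, where 3.1% of genes were called higher: C1qa at 1.24 ± 0.21, C1qb at 1.06 ± 0.20, C1qc at 0.93 ± 0.19, C4b at 1.55 ± 0.31 and Serping1 at 0.87 ± 0.24 (edgeR adjusted p = 0.00575, 0.0110, 0.0148, 0.0138 and 0.0422). The libraries below 4 were obese 2, 4 and 5 against lean 5 alone, which is assumed to vary like the other groups, and none was called, where 1.15% of genes were. Under anti-PD-1, 0 of 9 were called in libraries above 4 (2 obese against 3 lean), where 2.77% of genes were and Serping1 was at 1.00 ± 0.25 (edgeR adjusted p = 0.0603). C4b and Serping1 were called higher below 4 (6 obese against 2 lean), as were 6.07% of genes. C1s1 and C3, called under anti-PD-1 in all libraries, were called in neither set. Whether the C1q difference depends on the set was not tested.

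Markers of other cell types also differed between obese and lean fat pad. The summed level of the 10 mammary epithelium markers was 288 to 1649 CPM in obese anti-PD-1 libraries, against 1206 to 4489 CPM in lean anti-PD-1 libraries, and 9 of the 10 were lower by the test. Under IgG2a it was 491 to 924 CPM in obese libraries against 1237 to 2222 CPM in lean libraries, with 3 of 10 lower. Of the 12 fibroblast and progenitor markers none passed the test under either antibody, 3 fell over both antibodies (Dcn, Lum and Fbln1), and their sums overlapped between obese and lean mice. Of the 12 macrophage markers, 1 rose in obese mice under anti-PD-1, Mertk, and 2 under IgG2a, Cd68 and Fcgr1; over both antibodies 4 rose, Adgre1, Csf1r, Cd68 and Mertk. The shares of all tested genes that rose were 5.2%, 2.68% and 10.6% in these comparisons. The shares that fell were 4.85%, 3.12% and 8.15%, in the same order.

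Of the 6 neutrophil markers, S100a8 rose under each antibody, where 5.2% of tested genes rose under anti-PD-1 and 2.68% under IgG2a. Over both antibodies, where 10.6% of tested genes rose, 4 of the 6 markers rose (S100a8, S100a9, Retnlg and Csf3r). The sums of the 6 were 5.03 to 62.2 CPM in obese anti-PD-1 and 25.8 to 151 CPM in obese IgG2a libraries. In lean libraries they were 5.91 to 15.7 CPM under anti-PD-1 and 13.6 to 25.6 CPM under IgG2a. Of the 8 skeletal muscle markers, 5 fell in obese mice under anti-PD-1, none passed under IgG2a, and 6 fell over both antibodies. Of all tested genes, 4.85% fell under anti-PD-1, 3.12% under IgG2a and 8.15% over both antibodies. Muscle RNA was high in a few lean libraries: the sums reached 992 and 3042 CPM in lean anti-PD-1 1 and 2 and 3146 and 375 CPM in lean IgG2a 1 and 2. In obese libraries the highest was 359 CPM, in obese IgG2a 3. Of the 12 hepatocyte markers, 8 were called higher in obese mice under IgG2a and 5 over both antibodies, where 2.68% and 10.6% of tested genes rose. Their sum was 10039 CPM in obese IgG2a 5 and at most 95.2 CPM in the other obese IgG2a libraries. In lean IgG2a libraries it was 44.6 to 231.8 CPM. Between antibodies in obese mice, 7 of the 12 were lower under anti-PD-1, where 0.538% of tested genes were called in either direction. The endothelial marker Emcn fell in obese mice over both antibodies. Adipocyte, B cell, T cell and lymph node stroma markers had no call in obese against lean mice. The part of these cell types in the values of the 9 genes was not tested.

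The rest of the complement system was read from a list of 41 other genes, of which 32 passed the filter. Over both antibodies 7 rose in obese mice and 1 fell, where 10.6% of all tested genes rose and 8.15% fell, with a median log2 difference of 0.65 against 0.12 over all tested genes. Under anti-PD-1 2 of 32 rose and 1 fell, and under IgG2a 2 rose and 1 fell, which is near the shares of all tested genes (5.2% and 4.85% under anti-PD-1, 2.68% and 3.12% under IgG2a). Between antibodies in obese mice 1 fell, Cpn2, a subunit of the carboxypeptidase that trims complement fragments, and its value rested on obese IgG2a 5. Cpn2 was at 65.7 CPM in that library, against a median of 0.240 CPM in the obese IgG2a group and at most 0.338 CPM in obese anti-PD-1 libraries. Its log2 difference was -7.08 ± 1.63 SE (edgeR adjusted p = 0.0498), and -3.31 without that library (adjusted p = 0.514). The call was lost in 19 of the 23 fits without 1 library and held in 4, those without obese IgG2a 1, 3 or 4 or lean anti-PD-1 4.

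**Figure D5:**
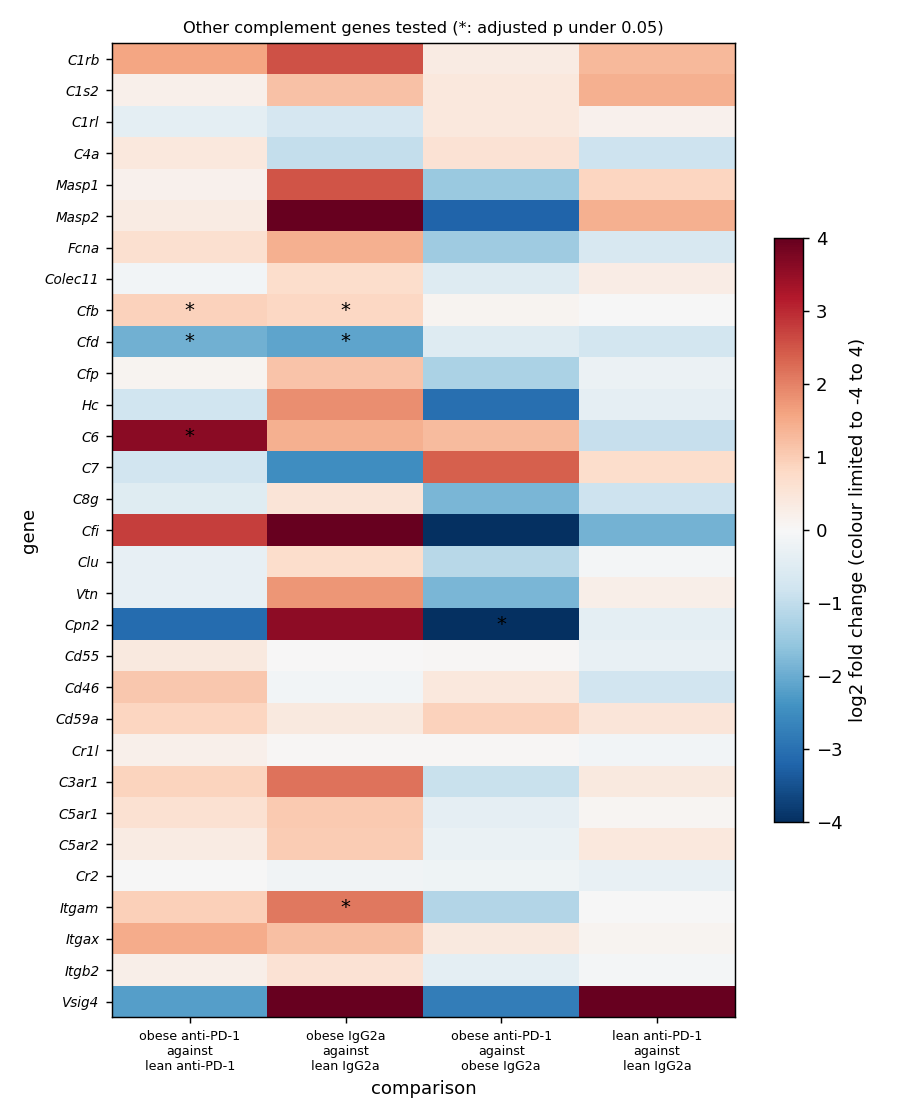
Log2 fold change, as colour, of 31 of the 32 other complement genes tested, in rows, in 4 comparisons, in columns, with a star where the adjusted p was under 0.05. Cfb is higher and Cfd lower with a star in both obese against lean columns.

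The alternative pathway genes split. Cfb, which encodes factor B, the counterpart of C2, averaged 312 ± 70.3 CPM in obese anti-PD-1 and 292 ± 54.1 CPM in obese IgG2a libraries, against 164 ± 37.6 CPM in lean anti-PD-1 and 165 ± 27.5 CPM in lean IgG2a libraries (SD, n = 8, 5, 5 and 5). It was higher in obese mice by 0.93 ± 0.19 SE under anti-PD-1 and 0.82 ± 0.21 under IgG2a (edgeR adjusted p = 0.00399 and 0.0233). The groups did not overlap in either pair, which held for 1.71% of tested genes in this direction under anti-PD-1 and 1.83% under IgG2a. The IgG2a call was lost without lean IgG2a 1 (edgeR adjusted p = 0.0819). Cfd, which encodes adipsin, the factor D protease made by adipocytes, was at 266 to 3406 CPM in obese anti-PD-1 and 412 to 3998 CPM in obese IgG2a libraries, against 4551 to 9075 CPM in lean anti-PD-1 and 4683 to 15309 CPM in lean IgG2a libraries. Under anti-PD-1, 3.11% of tested genes were likewise lower in obese mice without overlap. The differences were -1.92 ± 0.52 and -2.12 ± 0.61 (edgeR adjusted p = 0.0211 and 0.0407), the first lost without lean anti-PD-1 3 and the second without any one of 11 libraries.

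Among terminal and receptor genes, C6 encodes a part of the membrane attack complex. It was at 9.92 to 59.4 CPM in obese anti-PD-1 and at most 5.15 CPM in lean anti-PD-1 libraries (log2 3.60 ± 0.74 SE, edgeR adjusted p = 0.00354). Under IgG2a it was at least 9.85 CPM in obese and at most 7.38 CPM in lean libraries, and was not called. Over both antibodies it was called at 2.50 ± 0.51 (edgeR adjusted p = 0.00141). Every obese library was above every lean one, as for 0.226% of tested genes. Under anti-PD-1 alone, 1.71% of tested genes were separated in this direction. Itgam, the alpha chain of complement receptor CR3, was higher in obese mice under IgG2a by 2.12 ± 0.38 (edgeR adjusted p = 0.00174) and over both antibodies by 1.54 ± 0.25. Itgax, the alpha chain of CR4, and C3ar1, the receptor for C3a, were higher over both antibodies by 1.33 ± 0.37 and 1.55 ± 0.46 (edgeR adjusted p = 0.0137 and 0.0219), the second not without obese IgG2a 5 or lean IgG2a 1. C5ar1, the C5a receptor, did not pass at 0.83 ± 0.33 (edgeR adjusted p = 0.0867). Fcna, which encodes ficolin A, and Cfi, which encodes factor I, were called over both antibodies at 1.04 ± 0.36 and 4.32 ± 1.26 (edgeR adjusted p = 0.0449 and 0.0193), but Fcna was lost without any one of 15 libraries and Cfi without obese IgG2a 5 (adjusted p = 0.252). Cr2, the B cell receptor for C3d, was at 33.5 to 283 CPM in the 11 libraries with high B cell scores and at most 0.659 CPM in the other 12, and passed the test in no comparison (-0.07 ± 1.58 over both antibodies).

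For each gene, the tested genes outside the 9 most like it were ranked by Spearman's rho of log2 CPM over the 23 libraries after centring each group, as a description of libraries that share tissue makeup. Within the 9, rho was 0.95 for C1qa with C1qc, 0.84 for C1qa with C1qb, 0.85 for C1qb with C1qc and 0.81 for C1s1 with Serping1. Outside the 9, C1qa and C1qc were both most like Cpsf3 (rho 0.89 and 0.90). C1qa was next most like Igkv4-72, an immunoglobulin V gene, and Rbm42 (0.88 for both), and C1qc like Arpc2 and Clec12a (0.87 for both). C1qb was most like Tectb (0.79), followed by Mboat4 (0.75) and Cpsf3 (0.73). C1s1 was most like Ifngr1 (0.92) and BC037039 (0.91), and C1ra like Gm10273 (0.79) and Clec10a (0.78). C4b was most like Cir1 (0.89), Serping1 like Net1 (0.83), C2 like Zkscan4 (0.88) and C3 like Slc43a2 (0.77).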

How the data were processed

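Per the labels' protocols, the 23 libraries were made from poly(A)-enriched RNA and read without strand. The deposited files give estimated counts (not normalized) and TPM (per transcript length, scaled to 1 total per library) for 115088 transcripts. No source used here names the program behind these estimates; the submitters' processing notes list edgeR, limma and GRCm38 without versions. For this report, 114200 transcripts matched GENCODE M21 and were summed per gene, and the unmatched ones held at most 0.208% of any library's counts. Sums were rounded and filtered (filterByExpr, minimum count 10, by group). After TMM scaling, edgeR 4.0.16 (R 4.3.3) was run on all 23 libraries with a mean for each group: robust quasi-likelihood test, two-sided, Benjamini-Hochberg adjustment over 19882 genes, call under 0.05. SE is the size of the log2 fold change divided by the square root of F. The procedure was also run on simulated counts, with no outcome given here. These counts held no mixtures of tissue, so that run does not bear on lymph node, liver or muscle RNA. CPM values use TMM library sizes, and TPM values serve for levels between genes.

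Alternatives were DESeq2 1.42.0, other size factors and filters, fits of only the groups compared, log2(TPM + 1) and log2(TPM + 0.1) with limma 3.58.1, near copies added, the B cell score (mean log2 CPM of 9 markers) as covariate or as a split at 4, and libraries left out. The use of only the longest coding transcript was added after seeing the data. Named genes were the 9, the other complement genes called in any comparison, a few named throughout (near copies, Cfb, Cfd, C3ar1, C5ar1 and Cr2) and the closest genes by rank correlation. 1 other complement gene is counted in its list but not reported here by name. The 9 genes, the lists and the alternatives were chosen with earlier results of these data known. Shared cages or batches are not given in the labels, so p-values measure the spread between these libraries.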

Additional observations from a re-analysis of the deposited data

Results flagged for a closer look

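The groups of 4 or more libraries were searched for a value far from the rest of its group (Dixon's test, 36 groups of the 9 genes), and chance alone flags about 1 in 20 groups. For C1ra, lean anti-PD-1 4 was the lowest of its group at 33.8 CPM, with the other 4 libraries at 60.2 to 67.5 CPM. For Serping1, obese IgG2a 4 was the highest of its group at 424 CPM, with the other 4 at 140 to 172 CPM.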

How the results depend on the processing

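No paired analysis was possible because the labels give the libraries no shared replicate numbers. Of 13 alternatives, the split by B cell score changed the most. Among the 9 genes, libraries with a score above 4 gave 0 calls in obese against lean mice under anti-PD-1, 5 under IgG2a and 7 over both antibodies, and libraries below 4 gave 2, 0 and 2, against 4, 2 and 4 in all libraries. Fits of only the groups compared gave 1 call under IgG2a. TPM with limma, at either pseudocount, gave 7 calls over both antibodies (6 higher, 1 lower). With log2(TPM + 1), 5807 of the 19882 tested genes were called in that comparison, against 3731 in the main fit. TPM with limma also moved the median of all tested genes to 0.27 or 0.47 under anti-PD-1, against 0.08 by counts. For obese anti-PD-1 against obese IgG2a, DESeq2 and the B cell covariate each gave 3 calls, against 0. The share of all genes called in either of those fits is not given here. With 1 library left out, calls ranged from 3 to 4 under anti-PD-1, 1 to 2 under IgG2a, 3 to 4 over both antibodies and 0 to 3 between antibodies in obese mice, and stayed at 0 in lean mice and for the interaction. Of the 76 comparisons of a count of all called genes with an alternative, 28 moved by over 1.5 times, such as 107 genes between antibodies in obese mice, against 0 by log2(TPM + 1) and 767 in libraries below 4. The cause of these moves was not tested.

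Signs that turned belonged to fold changes that did not pass the test, Fcna apart. In libraries above 4, obese against lean under anti-PD-1 gave C1qa 0.26, C1qb 0.44 and C1qc 0.38; between antibodies in obese mice C1ra was 0.049, C1s1 -0.024 and C4b -0.78; the interaction was -0.071 for C2 and -0.55 for C4b; and over both antibodies C5ar1 was -0.023 and Cr2 1.08. In libraries below 4, obese against lean under IgG2a gave C1qa -0.081, C1qc -0.0050, C1ra -0.32, C1s1 -0.24 and C2 -0.64. Over both antibodies the same libraries gave C1qa -0.42, C1qb -0.13, C1qc -0.21, C2 -0.30, C1rb -0.44, C4a 0.54, Fcna -0.12 and Cr2 3.34, and the antibody differences there were 0.0048 for C2 in obese and 0.066 for C1qb in lean mice. With the B cell covariate, C4b was -0.093 between antibodies in obese mice, C1qa 0.022 in lean mice and C4a 0.013 over both antibodies. By TPM with limma, obese against lean under anti-PD-1 gave 0.33 for C1qb and 0.23 for C1qc, and antibody differences of 0.12 for C1ra in obese and 0.058 for C3 in lean mice. With only the longest coding transcript, antibody differences in obese mice were -0.39 for C1s1 and 0.20 for C2, that of C1s1 in lean mice was 0.21 and its interaction -0.60. Without obese IgG2a 2 and 5, antibody differences in obese mice were -0.056 for C1s1 and -0.0053 for Serping1, and Cr2 was 0.41 over both antibodies. DESeq2 and its size factors in edgeR each gave Cr2 0.026.

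Leaving out 1 library turned the sign of 7 small fold changes. C1qb in obese against lean under anti-PD-1 ranged from -0.23 to 0.0010, C2 under IgG2a from -0.055 to 0.24, and C1qa over both antibodies from -0.025 to 0.22. C1s1 between antibodies in obese mice ranged from -0.027 to 0.23, and C3 in lean mice from -0.12 to 0.10. C4a over both antibodies ranged from -0.42 to 0.16 and Cr2 from -0.74 to 0.42. Each of the 9 genes had at least 1332 counts in each library, and no fit was made at another depth.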
